A study of Mus musculus with 10 samples.

Results

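Resident macrophage markers are genes by which the long-lived macrophages of a tissue are commonly recognised, and 10 of them were followed here in interscapular brown adipose tissue (iBAT): Adgre1, Cd68, Csf1r, Mpeg1, Mrc1, Cd163, Lyve1, C1qa, C1qb and C1qc. They were listed by name as macrophage genes and not by a rule on measured values, though earlier results of these data were known at the time. All 10 were found among the 41249 genes of the count tables. RNA of the whole depot was sequenced from 5 Axl KO and 5 wild-type (WT) mice after 24 weeks of high-fat diet (HFD) that began at an age of 6 to 8 weeks. The labels and the series' design text give these ages and times, whereas the paper gives a somewhat later start and a longer diet. The knockout was constitutive and in the whole body: a gene-trap cassette in an intron of Axl, introduced through 2 clones of embryonic stem cells, diverts the transcript in every cell type, macrophages included. According to the paper all mice were male. Diet, tissue and housing were shared by both genotypes.

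Macrophages that live in a tissue take up dead cells, debris and iron, and in brown fat they lie between adipocytes, capillaries, lymphatics and sympathetic nerves. Their survival depends on the receptor CSF1R and its ligands CSF1 and IL-34, and their gene program on the transcription factor PU.1, encoded by Spi1. AXL belongs to the TAM family of receptors, with which macrophages bind GAS6 and protein S on dying cells, so the comparison asks whether the markers of these cells differed between iBAT with and without the receptor. Because RNA came from the whole depot, fewer macrophages and less of a transcript per macrophage cannot be told apart in any value below.

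The targeted gene separated the genotypes. Axl had 13, 13, 15, 3 and 9 counts in Axl KO mice 1 to 5 and 383, 361, 357, 224 and 359 counts in WT mice 1 to 5. The change was -4.77 on the log2 scale (SE 0.20; adjusted p = 1.096e-07, quasi-likelihood test of edgeR, adjusted by Benjamini-Hochberg over all tested genes). Between 5431014 and 8214841 reads were counted per Axl KO mouse and between 5952427 and 9580215 per WT mouse. At this depth a marker received between 19 counts (Cd68 in Axl KO replicate 5) and 400 counts (Mrc1 in Axl KO replicate 3) in a mouse, and the 10 markers together took up 0.0120 to 0.0230% of all counts. Counting error alone therefore gives a coefficient of variation between 6.50% for Mrc1 and 18.5% for Cd68. Brown adipocyte genes were abundant in both genotypes, with 4119 ± 863 CPM (counts of a gene scaled to an equal number of reads per library) of Ucp1 in WT and 5561 ± 1197 CPM in Axl KO mice (SD, n = 5 each).

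No difference between Axl KO and WT iBAT was detected for any of the 10 markers. All 10 lay above the limit of a mean of 1 CPM set for testing, and edgeR's quasi-likelihood test called 0 of them at an adjusted p under 0.05, where it called 1 of all 13739 tested genes, or 0.00728%, which was Axl itself. DESeq2 also called 0 of the 10. At an unadjusted p under 0.05 the count was 0 of 10 with either tool, against 8.4% of all tested genes with edgeR. Neither did any marker separate the mice without overlap, which 1.35% of all tested genes did. Fitted values were higher in Axl KO mice for 4 markers (Cd68, Mrc1, C1qc and Lyve1) and lower for 6, with a median of -0.05 on the log2 scale, beside a median of -0.00059 over all tested genes. This median was -0.18 without Axl KO replicate 3 and 0.07 without Axl KO replicate 4. The median size of the difference, regardless of its sign, was 0.10 for the markers and 0.10 for all tested genes. The median SE was 0.18 for the markers and 0.12 for all tested genes. The 95% confidence intervals ran from a ratio of Axl KO to WT of 0.636, the lower end for Lyve1, to 1.74, the upper end for Cd68, so that a 2-fold change lay outside the interval of every marker.

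**Figure D1:**
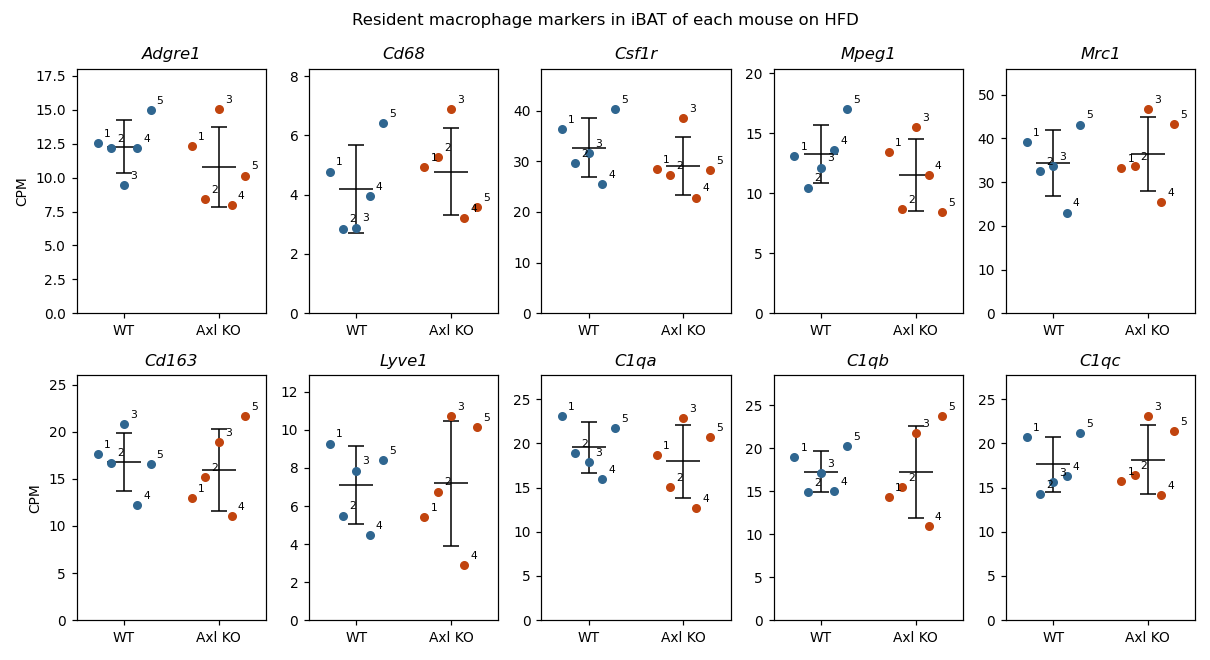
Level of each resident macrophage marker in every mouse. The y axes give CPM from 0 on a linear scale, each point is 1 mouse labelled with its replicate number, and the bars give the mean and SD of 5 mice per genotype. In all 10 panels the Axl KO and WT points overlap, and Axl KO replicates 3 and 4 lie far apart in most of them.

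**Figure D2:**
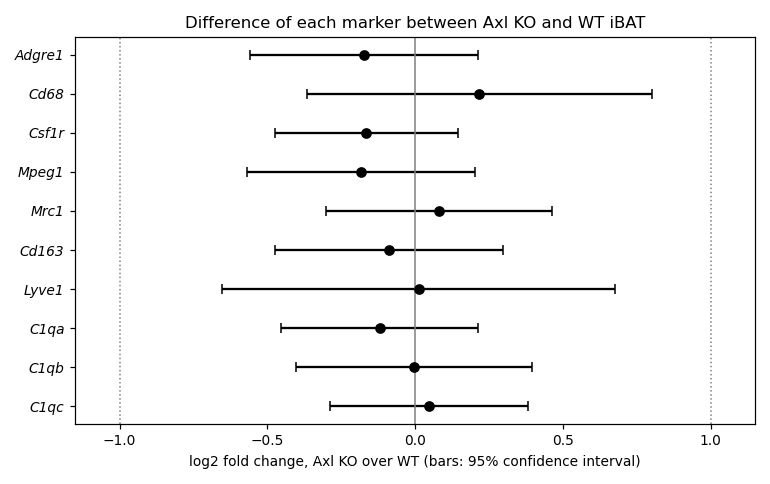
Difference of each marker between the genotypes. The x axis gives the log2 fold change of Axl KO over WT from edgeR, bars are 95% confidence intervals and dotted lines mark a 2-fold change in either direction. Each interval spans 0 and ends inside the dotted lines.

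Adgre1, Cd68, Mpeg1 and Csf1r are carried by nearly all macrophages. Adgre1 (ENSMUSG00000004730, chr17:57358691-57483527 on the plus strand of GRCm38) encodes F4/80, an adhesion receptor used to sort mouse macrophages. It was measured at 12.3, 8.42, 15.0, 8.01 and 10.2 CPM in Axl KO mice 1 to 5 and at 12.6, 12.2, 9.48, 12.2 and 15.0 CPM in WT mice 1 to 5. The Axl KO mice spread from the lowest to the highest value of the whole set, with the WT mice between them. The means were 10.8 ± 2.93 CPM in Axl KO and 12.3 ± 1.95 CPM in WT mice (SD, n = 5 each), a log2 fold change of -0.17 (SE 0.18; adjusted p = 0.8022, edgeR with Benjamini-Hochberg adjustment).

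Cd68 (ENSMUSG00000018774, chr11:69664213-69666153, minus strand) encodes a glycoprotein of the lysosome membrane and was the marker with the fewest reads. Its values were 4.94, 5.26, 6.88, 3.20 and 3.58 CPM in Axl KO and 4.78, 2.86, 2.89, 3.95 and 6.42 CPM in WT mice. Both genotypes covered nearly the same range. The log2 fold change of 0.22 had an SE of 0.27, the second widest of the 10 markers, and an adjusted p of 0.8368 (edgeR with Benjamini-Hochberg adjustment).

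Mpeg1 (ENSMUSG00000046805, chr19:12460779-12465283, plus strand) encodes perforin-2, a pore-forming protein of phagocytes directed at engulfed bacteria. It reached 13.4, 8.72, 15.5, 11.5 and 8.47 CPM in Axl KO mice and 13.1, 10.5, 12.1, 13.6 and 17.0 CPM in WT mice. The 2 lowest mice were Axl KO replicates 5 and 2 and the highest was WT replicate 5, while the other mice of both genotypes were interleaved. With a log2 fold change of -0.18 (SE 0.18; adjusted p = 0.7916, edgeR with Benjamini-Hochberg adjustment), it had the lowest fitted value of the 10.

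Csf1r (ENSMUSG00000024621, chr18:61100598-61132149, plus strand) encodes the receptor on which macrophage survival depends. Axl KO mice had 28.6, 27.4, 38.5, 22.9 and 28.2 CPM, and WT mice 36.5, 29.6, 31.7, 25.5 and 40.3 CPM. Of the 5 Axl KO mice 4 lay below 4 of the WT mice, but Axl KO replicate 3 was the second highest of all and WT replicate 4 the second lowest. The log2 fold change was -0.17 (SE 0.14; adjusted p = 0.7609, edgeR with Benjamini-Hochberg adjustment), and its unadjusted p of 0.2688 was the lowest of the 10 markers. Csf1r shares 873 exon bases with Hmgxb3 on the opposite strand. Hmgxb3 received 2553 reads over the 10 mice and Csf1r 2293, and since the strand setting of the counting is not given in the sources used here, reads of the shared stretch may belong to either gene.

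The 3 genes of complement component C1q, C1qa, C1qb and C1qc, encode the 3 chains of the protein that recognises immune complexes and dying cells at the start of the classical complement pathway, and macrophages are its main source in most tissues. They lie side by side on the minus strand of chromosome 4, in the order C1qb (chr4:136880129-136886187), C1qc (chr4:136889804-136893065) and C1qa (chr4:136895917-136898803). C1qa was measured at 18.7, 15.0, 22.9, 12.7 and 20.7 CPM in Axl KO and at 23.1, 18.9, 17.9, 16.0 and 21.8 CPM in WT mice. C1qb was measured at 14.4, 15.5, 21.8, 10.9 and 23.7 CPM in Axl KO and at 19.0, 14.9, 17.1, 15.0 and 20.3 CPM in WT mice. C1qc was measured at 15.7, 16.4, 23.1, 14.1 and 21.5 CPM in Axl KO and at 20.8, 14.3, 15.6, 16.3 and 21.1 CPM in WT mice. For all 3 genes Axl KO replicate 4 was the lowest mouse of the 10 and Axl KO replicates 3 and 5 were among the highest, so the Axl KO values covered the whole range for C1qb and C1qc and, for C1qa, all of it but WT replicate 1 at the top. The log2 fold changes were -0.12 (SE 0.15) for C1qa, -0.0034 (SE 0.18) for C1qb and 0.05 (SE 0.15) for C1qc, with adjusted p-values of 0.8429, 0.9982 and 0.9504 (edgeR with Benjamini-Hochberg adjustment). The C1qb means were 17.3 ± 5.34 CPM in Axl KO and 17.2 ± 2.39 CPM in WT mice (SD, n = 5 each), with a coefficient of variation of 31.0% and 13.8%, respectively.

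Promoter sequences were read because PU.1 is known to bind the core GAGGAA in promoters of myeloid genes. A RefSeq window (build GRCm38.p6) was used for 6 of the 10 markers, and none for Adgre1, Csf1r, Lyve1 and C1qa. The windows of Cd68 and Cd163 were searched but are not printed. Csf1r, C1qa and Lyve1 were among the markers closest to the others between mice. Whether the letters go with how markers moved together was therefore not tested. The windows below run 5′ to 3′ toward the start of the gene, hold only bases outside the annotated transcripts, and show in capitals each GAGGAA or its reverse complement TTCCTC.
C1qb, chr4:136886201-136886450, minus strand: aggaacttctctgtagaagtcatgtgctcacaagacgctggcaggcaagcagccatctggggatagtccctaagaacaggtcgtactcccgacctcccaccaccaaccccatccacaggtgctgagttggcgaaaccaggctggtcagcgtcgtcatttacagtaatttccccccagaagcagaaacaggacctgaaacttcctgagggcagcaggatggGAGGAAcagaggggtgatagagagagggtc
C1qc, chr4:136893066-136893164, minus strand: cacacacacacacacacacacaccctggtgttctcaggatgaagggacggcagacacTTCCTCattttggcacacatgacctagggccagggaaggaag
Mrc1, chr2:14229164-14229391, plus strand: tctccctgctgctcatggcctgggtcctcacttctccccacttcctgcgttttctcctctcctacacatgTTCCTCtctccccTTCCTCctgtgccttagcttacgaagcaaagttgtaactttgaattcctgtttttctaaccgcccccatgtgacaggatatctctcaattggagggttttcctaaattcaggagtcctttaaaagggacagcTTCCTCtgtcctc
Mpeg1, chr19:12460520-12460769, plus strand: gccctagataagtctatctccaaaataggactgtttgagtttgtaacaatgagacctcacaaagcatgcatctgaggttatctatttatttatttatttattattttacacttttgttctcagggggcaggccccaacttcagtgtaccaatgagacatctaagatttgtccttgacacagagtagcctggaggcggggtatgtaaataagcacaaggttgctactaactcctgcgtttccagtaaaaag
C1qb had 1 match, 24 bases before the RefSeq start, and C1qc had 1 match, 187 bases before it. Mrc1 had 3 matches, at 29, 161 and 174 bases. Within the 250 bases before the start, Cd68 also had 1 match, whereas Mpeg1 and Cd163 had 0, so 4 of the 6 markers with a window held the letters on either strand. Of all 32851 windows of this length, 23.3% held them. A match of 6 bases is a description of the sequence and no evidence of binding, and a window without one says only that these letters are not there.

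Mrc1, Cd163 and Lyve1 are receptors that characterise macrophages around vessels and in connective tissue. Mrc1 (ENSMUSG00000026712, chr2:14229392-14332057, plus strand) encodes CD206, the mannose receptor for sugars and collagen fragments. Its values were 33.2, 33.7, 46.6, 25.3 and 43.3 CPM in Axl KO and 39.2, 32.6, 33.8, 23.0 and 43.2 CPM in WT mice. Replicate 4 was the lowest mouse of each genotype, and each genotype had at least 1 mouse above 43 CPM. The means of 36.4 ± 8.55 and 34.4 ± 7.62 CPM (SD, n = 5 each) gave a log2 fold change of 0.08 (SE 0.18; adjusted p = 0.9197, edgeR with Benjamini-Hochberg adjustment).

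Cd163 (ENSMUSG00000008845, chr6:124304656-124330527, plus strand) encodes the scavenger receptor for complexes of hemoglobin and haptoglobin. It was measured at 12.96, 15.2, 18.9, 11.1 and 21.6 CPM in Axl KO and at 17.6, 16.7, 20.8, 12.2 and 16.6 CPM in WT mice. The highest and the lowest mouse were both Axl KO. Its log2 fold change was -0.09 (SE 0.18; adjusted p = 0.9104, edgeR with Benjamini-Hochberg adjustment).

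Lyve1 (ENSMUSG00000030787, chr7:110850607-110863239, minus strand) encodes a receptor for hyaluronan that perivascular macrophages share with lymphatic endothelium. It was the most variable marker, with 5.40, 6.76, 10.7, 2.91 and 10.2 CPM in Axl KO and 9.28, 5.50, 7.86, 4.47 and 8.43 CPM in WT mice. Replicate 4 was again the lowest of each genotype. Within Axl KO mice the highest value was 3.68 times the lowest, and within WT mice 2.08 times, while the means of 7.19 ± 3.28 and 7.11 ± 2.04 CPM (SD, n = 5 each) gave a fitted ratio of 1.01 (log2 fold change 0.01, SE 0.31; adjusted p = 0.9977, edgeR with Benjamini-Hochberg adjustment). Lyve1 had 20 to 92 counts per mouse. Of the genes listed for lymphatic endothelium, Flt4, the receptor for VEGF-C, was at 8.05 ± 0.553 CPM in Axl KO and 8.95 ± 0.997 CPM in WT mice, Mmrn1 at 7.86 ± 3.12 and 7.36 ± 2.28 CPM, and Reln at 6.59 ± 2.23 and 8.59 ± 2.09 CPM (SD, n = 5 each), levels like that of Lyve1 when not divided by gene length. Pdpn was lower, at 1.43 ± 0.477 and 1.55 ± 0.518 CPM, and so was Prox1, the master transcription factor of these cells, at 0.579 ± 0.309 and 1.10 ± 0.543 CPM. Both entries of Ccl21a had 0 counts in every mouse. How reads that match both entries were counted is not given in the sources used here. Over the mice, r with the mean of the 10 markers was 0.96 for Reln, 0.82 for Mmrn1, 0.48 for Flt4 and 0.30 for Pdpn. How much of Lyve1 came from lymphatic cells was not tested.

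To compare markers with one another, CPM were divided by the length of each gene's exons in kilobases. This length counts every base of any annotated exon once, also of exons that the tissue may not use. On this scale the C1q genes stood at the top, with means over the 10 mice of 18.0 ± 3.33 CPM per kb for C1qa, 15.9 ± 3.58 for C1qb and 9.26 ± 1.73 for C1qc (SD, n = 10). C1qa exceeded C1qb in 9 of 10 mice, C1qb exceeded C1qc in 10 of 10 and C1qc exceeded the next marker, Mrc1, in 10 of 10. Mrc1 (5.55 ± 1.21 CPM per kb) and Csf1r (5.35 ± 1.00) could not be ordered, each being higher in 5 mice, but Csf1r was above Adgre1 (3.56 ± 0.763) in 10 of 10 mice. The lower markers were not separated from their neighbours beyond the spread between mice: Adgre1 exceeded Cd68 (3.56 ± 1.13) in 5 mice, Cd68 exceeded Cd163 (3.00 ± 0.652) in 7, Cd163 exceeded Mpeg1 (2.86 ± 0.631) in 5, and Mpeg1 exceeded Lyve1 (2.45 ± 0.882) in 6. Per kb of exon the ratio of C1qb to C1qc ran from 1.37 to 1.96 in single mice, and the ratio of C1qa to C1qb from 0.913 to 1.36. Before the division the means were similar, at 18.76 CPM for C1qa, 17.25 for C1qb and 17.89 for C1qc. Their exon lengths were 1040, 1088 and 1931 bases, so the place of C1qc below C1qb depends on the annotated length. Whether the 3 transcripts differ in level was not tested.

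Individual mice of one genotype differed by more than the genotypes did. The 10 markers summed to 160, 152, 220, 123 and 191 CPM in Axl KO mice 1 to 5 and to 196, 158, 169, 142 and 210 CPM in WT mice 1 to 5, so the highest and the lowest sums were both found in Axl KO mice. The means of the sums were 169 ± 37.5 CPM in Axl KO and 175 ± 27.6 CPM in WT mice (SD, n = 5 each). Axl KO replicate 3 was the highest of the 10 mice for 5 markers and Axl KO replicate 4 the lowest for 7. The median rank over the 10 markers, counted from the lowest mouse, was 9.5 for Axl KO replicate 3, 1 for Axl KO replicate 4, 8 for Axl KO replicate 5 and 8 for WT replicate 5. Replicate 4 of Axl KO was below its genotype's mean for 9 of the 10 markers, by between 0.32 on the log2 scale for Csf1r and 1.10 for Lyve1, and the exception was Mpeg1, where it stood 0.04 above. Axl KO replicate 5 parted the markers into groups, with Lyve1, C1qb and Cd163 at 0.62, 0.51 and 0.48 above the genotype mean on the log2 scale, whereas Mpeg1 and Cd68 lay at -0.39 and -0.34 relative to it.

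**Figure D3:**
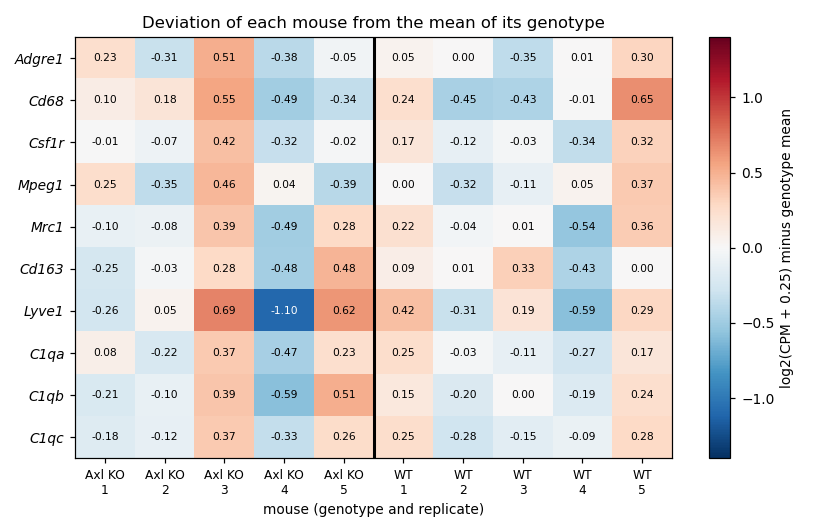
Deviation of each mouse from the mean of its genotype for each marker. Columns are the 10 mice, rows the markers, and the printed value and colour give log2(CPM + 0.25) minus the genotype mean. Axl KO replicate 3 is positive for all 10 markers (0.28 to 0.69), Axl KO replicate 4 is negative for all but Mpeg1, and Axl KO replicate 5 is positive for the C1q and receptor genes but negative for Adgre1, Cd68, Csf1r and Mpeg1.

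Most markers rose and fell together from mouse to mouse. Over the 45 pairs of markers, Pearson's r of log2(CPM + 0.25), with each genotype's mean subtracted and n = 10 mice, ran from -0.22 to 0.95 with a median of 0.70, and it was above 0.8 for 17 pairs. In permutation tests with 100000 resamples, adjusted by Benjamini-Hochberg over the 45 pairs, 23 pairs passed 0.05 by Pearson's r, 18 by Spearman's rho and 17 by both. The closest pair was C1qb and Lyve1, with r = 0.95 (permutation p = 3e-05, adjusted 0.00135) and rho = 0.93 (permutation p = 0.00049, adjusted 0.0113), and r was 0.94 without the 2 mice farthest from the median. Mrc1 and Lyve1 followed with r = 0.92 and rho = 0.92 (permutation p = 0.00018 and 0.0005, adjusted 0.00396 and 0.0113), and r was 0.86 without the 2 farthest mice. All values of a mouse come from 1 library, whose depth and composition they share. How many pairs of other genes would pass was not computed. Over all tested genes the median r with the mean of the 10 markers was -0.0046.

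The C1q chains correlated with each other (r = 0.83 to 0.91), and so did the receptors Mrc1, Cd163 and Lyve1 (0.82 to 0.92). Between these sets the 9 pairs had a median r of 0.84. Csf1r was close to the rest, with r = 0.94 to the mean of the other 9 markers, followed by C1qa at 0.92, Mrc1 and C1qc at 0.90, Lyve1 at 0.87 and C1qb at 0.86. Adgre1 (0.72), Cd68 (0.66) and Cd163 (0.59) were looser, and Mpeg1 was the loosest at 0.35. Mpeg1 passed the test by both measures with 0 of the other 9 markers; its r was highest with Adgre1 at 0.70 (permutation p = 0.0236, adjusted 0.0462; rho 0.71, permutation p = 0.0269, adjusted 0.0550) and lowest with Cd163 at -0.22 (permutation p = 0.5295, adjusted 0.5956; rho -0.32, permutation p = 0.3658, adjusted 0.4332).

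Some of these relations rested on few mice. Leaving out, for each pair, the 2 mice farthest from the median of the first gene lowered the median r over the 45 pairs from 0.70 to 0.55. Adgre1 and Csf1r went from r = 0.72 to 0.41 and Adgre1 and Cd163 from 0.17 to -0.39 without Axl KO replicates 3 and 4, whereas C1qb and C1qc went from 0.91 to 0.93 without Axl KO replicates 4 and 5. Without the subtraction of genotype means the median r was 0.68.

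**Figure D4:**
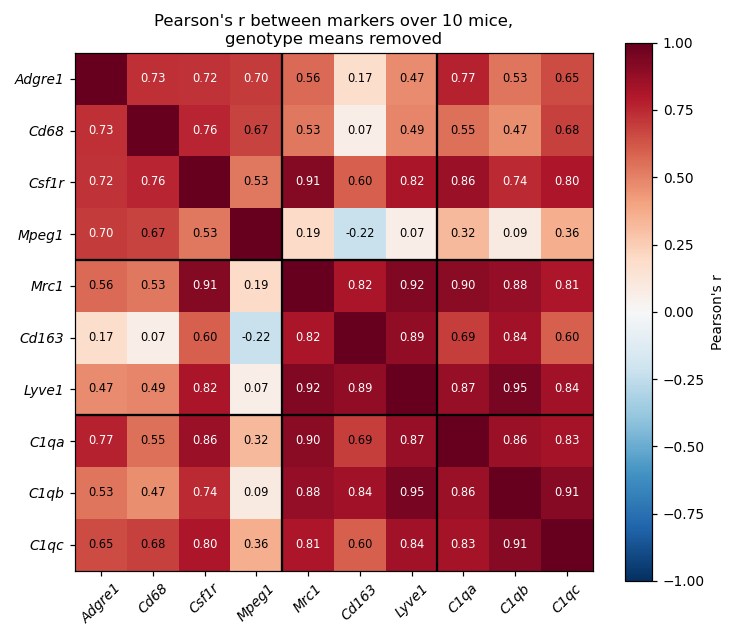
Pearson's r between the markers over 10 mice after subtraction of the genotype means, on a colour scale from -1 to 1. Black lines separate the 4 general macrophage genes, the 3 receptors and the 3 C1q genes; the block of receptors and C1q genes lies at 0.60 or above, while the row of Mpeg1 is pale outside its own block.

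Among the 13729 tested genes that are not markers, those with the most similar profile to the mean of the 10 standardized markers were Pam (r = 0.99), Ehd4 (0.98), Reln (0.96), Car7 (0.96) and Lyz2 (0.96), over n = 10 mice with genotype means removed. They are given as a description, since they were picked for this value. Pam encodes the enzyme that amidates peptide hormones, Ehd4 a protein of endosome recycling, Reln the secreted glycoprotein reelin, Car7 a carbonic anhydrase, and Lyz2 lysozyme, which macrophages and other myeloid cells secrete. With any 1 mouse left out, r stayed between 0.98 and 0.99 for Pam and between 0.94 and 0.98 for Lyz2. In all, 165 genes had r above 0.8, and of the 100 closest genes 8 belonged to the 2 lists of further macrophage genes described next, of which 29 were tested.

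Further macrophage and myeloid genes likewise did not pass the test. Of 18 such genes 17 were tested, 10 with higher and 7 with lower fitted values in Axl KO mice. Their median log2 fold change was 0.02 (-0.13 without Axl KO replicate 3 and 0.10 without Axl KO replicate 4), and 0 passed an unadjusted p of 0.05. The lowest value was that of Aif1, an actin-binding protein of macrophages, at -0.36 (SE 0.38). Aif1 had 3 to 15 counts per mouse, with 0.940 CPM in Axl KO and 1.16 CPM in WT mice. It passed the limit for testing only through the WT mice, where it was higher. Spi1, which encodes PU.1, was at 1.88 ± 0.728 CPM in Axl KO and 1.76 ± 0.665 CPM in WT mice (SD, n = 5 each; log2 fold change 0.15, SE 0.32; adjusted p = 0.9207, edgeR with Benjamini-Hochberg adjustment). Lyz2 was at 52.0 ± 14.5 CPM in Axl KO and 51.4 ± 9.95 CPM in WT mice, with a log2 fold change of 0.02 (SE 0.17). Among 16 companions of tissue-resident macrophages 12 were tested, 5 higher and 7 lower with a median of -0.02 (-0.08 without Axl KO replicate 3 and 0.07 without WT replicate 5), and 0 passed an unadjusted p of 0.05. The ends of this list were Cd209g, a lectin gene, at -0.73 (SE 0.35) and Pf4, platelet factor 4, at 0.35 (SE 0.22). Cd209g had 3 to 16 counts per mouse, with 0.749 ± 0.208 CPM in Axl KO and 1.26 ± 0.602 CPM in WT mice. It passed the limit for testing only through the WT mice, where it was higher, so its place at the end is no support for a difference. Timd4, a receptor for phosphatidylserine on embryo-derived resident macrophages, had at most 14 counts in a mouse and was not tested.

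Genes that act through CSF1R and related receptors did not pass the test either. All 12 of this list were tested, with 3 higher, 9 lower and a median log2 fold change of -0.12 (-0.27 without Axl KO replicate 3 and -0.04 without WT replicate 5), and 0 passed an unadjusted p of 0.05. The ligand Csf1 was at 13.9 ± 3.82 CPM in Axl KO and 14.9 ± 3.52 CPM in WT mice, and the second ligand, Il34, at 2.87 ± 0.460 and 3.13 ± 0.225 CPM (SD, n = 5 each). Csf2ra, a chain of the receptor for GM-CSF, had the lowest value at -0.51 (SE 0.25), and Inpp5d, an inositol phosphatase of blood cells, the highest at 0.20 (SE 0.18).

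Beside C1q, the complement list had 15 of 16 genes tested, 8 higher and 7 lower with a median of 0.000094 (-0.08 without Axl KO replicate 3 and 0.08 without WT replicate 5). C3, the central component that the classical pathway cleaves, was the 1 gene of them at an unadjusted p under 0.05 (0.0237; adjusted p = 0.5714, edgeR with Benjamini-Hochberg adjustment). Its values were 682 ± 300 CPM in Axl KO and 424 ± 89.0 CPM in WT mice (SD, n = 5 each), a log2 fold change of 0.69 (SE 0.27), and an exact permutation test over the 252 splits of 5 against 5 mice gave p = 0.119. C3 did not follow the markers between mice (r = -0.39 with their mean). At the other end, C5ar1, the receptor for C5a, was at -0.41 (SE 0.26).

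Of 21 genes for the clearance of dying cells, 16 were tested, 4 higher and 12 lower with a median of -0.11 (-0.22 without Axl KO replicate 3 and -0.02 without WT replicate 5). Axl was the only one called. Beside it, the AXL ligand Gas6 (38.7 ± 6.76 CPM in Axl KO, 48.6 ± 7.43 CPM in WT; log2 fold change -0.33, SE 0.13; unadjusted p = 0.0252) and Lrp1, a large endocytic receptor (570 ± 49.2 and 687 ± 91.6 CPM; -0.27, SE 0.09; unadjusted p = 0.0121), had an unadjusted p under 0.05, and both had an adjusted p of 0.5714 (edgeR with Benjamini-Hochberg adjustment). The exact permutation test gave p = 0.0635 for Gas6 and 0.0238 for Lrp1. Abca1, a cholesterol exporter, had the highest value at 0.16 (SE 0.09). Mertk, the TAM receptor best known from macrophages, was at 12.4 ± 1.38 CPM in Axl KO and 11.7 ± 1.03 CPM in WT mice, with a log2 fold change of 0.07 (SE 0.10).

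Genes of activated macrophages were mostly too low to test. Of 14 activation genes 4 were tested, 2 higher and 2 lower with a median of 0.06 (-0.21 without Axl KO replicate 3 and 0.14 without Axl KO replicate 4), with 0 at an unadjusted p under 0.05, Nos2 at -0.27 (SE 0.25) and Cd86 at 0.13 (SE 0.26) being the ends of the range. Tnf, Il1b and Il6 had at most 5, 4 and 2 counts in a mouse. Of 7 lipid-associated macrophage genes 6 were tested, 3 higher and 3 lower with a median of 0.02 (-0.42 without Axl KO replicate 3 and 0.26 without WT replicate 5). Trem2, a lipid-sensing receptor of macrophages, was the 1 gene at an unadjusted p under 0.05 (0.0189; adjusted p = 0.5714, edgeR with Benjamini-Hochberg adjustment), with 1.36 ± 0.620 CPM in Axl KO and 0.671 ± 0.302 CPM in WT mice (log2 fold change 1.05, SE 0.39). Trem2 had at most 20 counts in a mouse, and the exact permutation test gave p = 0.0476 for it. The WT mean lay below 1 CPM, so Trem2 passed the limit for testing only through the Axl KO mice, where it was higher. Both p-values are therefore no support for a difference. Cd9, a tetraspanin, lay lowest at -0.12 (SE 0.26).

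**Figure D5:**
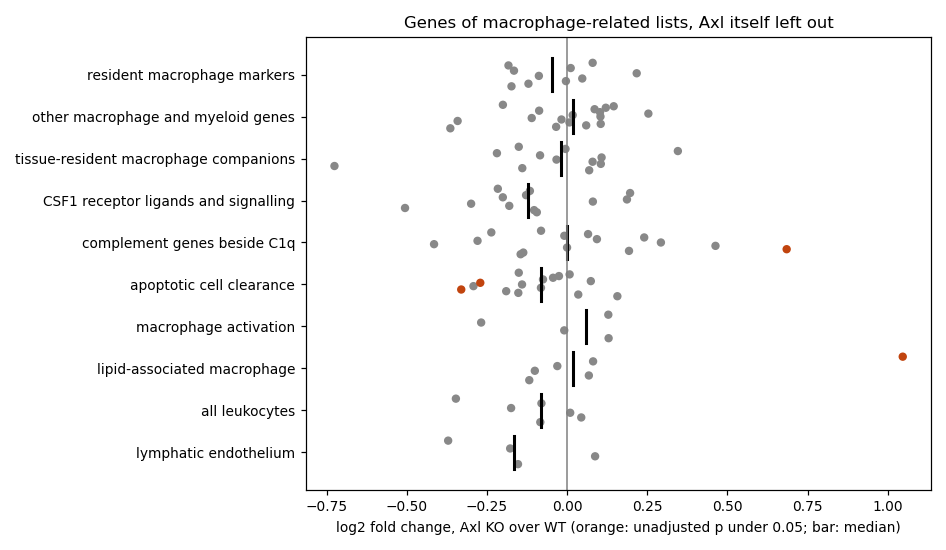
Log2 fold changes of Axl KO over WT for the tested genes of 10 lists related to macrophages, with Axl left out. Each point is a gene, orange points have an unadjusted p under 0.05, and black bars mark the median of each list. The medians lie near 0, and the orange points are C3, Trem2, Gas6 and Lrp1. Trem2 passed the limit for testing only through the Axl KO mice.

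Other cells of the depot gave the following values. Genes of all leukocytes summed to 33.6 to 65.2 CPM in Axl KO and 38.3 to 57.3 CPM in WT mice, with 2 of 6 higher, 4 lower, 0 at an unadjusted p under 0.05 and a median log2 fold change of -0.08 (-0.33 without Axl KO replicate 3 and 0.01 without Axl KO replicate 1). Single genes were testable among monocyte (Ccr2, log2 fold change 0.05), neutrophil (Csf3r, 0.24) and B cell markers (Ighm, -0.43), with 0 at an unadjusted p under 0.05, 2 among dendritic cell markers (Zbtb46, -0.02, and Cd209a, 0.36), likewise with 0, and 0 of 8 among T and NK cell markers. These values rested on few mice: Ighm was at -0.08 without WT replicate 5 and -0.65 without WT replicate 3, Csf3r at 0.04 without WT replicate 5, and Ccr2 at -0.38 without Axl KO replicate 3. Csf3r and Cd209a had WT means of 0.953 and 0.961 CPM and Axl KO means of 1.12 and 1.25 CPM. Both passed the limit for testing only through the Axl KO mice, where they were higher. The neutrophil gene Ly6g was at 0 counts in every mouse. Of 5 mast cell genes 4 were tested and all 4 were higher in Axl KO mice, with Cpa3 (0.82, SE 0.32) and Cma1 (0.91, SE 0.39) at an unadjusted p under 0.05. For these 2 genes the exact permutation test gave p = 0.0873 and 0.0794. Lymphatic endothelium genes summed to 16.7 to 31.2 CPM in Axl KO and 20.5 to 33.1 CPM in WT mice, with Reln at -0.37 (SE 0.23) and Mmrn1 at 0.09 (SE 0.30) as the ends of the log2 fold changes. Blood endothelium had 2 genes higher and 6 lower, and Cldn5 (-0.73, SE 0.20) and Egfl7 (-0.31, SE 0.11) had an unadjusted p under 0.05. Their p by the exact permutation test was 0.0159 and 0.0476.

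Brown adipocyte genes had 11 of 12 higher in Axl KO mice, 5 of them at an unadjusted p under 0.05: Elovl3 (1.67, SE 0.49), Dio2 (0.89, SE 0.21), Ucp1 (0.43, SE 0.16), Cox8b (0.24, SE 0.06) and Cox7a1 (0.14, SE 0.06). Dio2 and Cox8b separated the genotypes without overlap. The exact permutation test gave p = 0.00794 for both, 0.03175 for Elovl3 and Cox7a1, and 0.0556 for Ucp1. The genes of this list had a median r of -0.48 with the mean of the macrophage markers over the mice, compared with 0.76 for the companions of resident macrophages and 0.58 for the other macrophage genes. Several lists of other cells also had positive medians. These were 0.73 for all leukocytes, 0.65 for lymphatic endothelium, 0.50 for erythroid genes and 0.42 for blood endothelium. Lower medians were those of fibroblast and progenitor (0.33), mast cell (0.28), skeletal muscle (0.26), dendritic cell (0.23) and Schwann cell genes (0.10). The single testable genes of monocytes, B cells and neutrophils had r = 0.89, 0.73 and -0.23. All 7 fibroblast and progenitor genes were lower, Col1a1 (-0.43, SE 0.18) with an unadjusted p under 0.05 by edgeR and p = 0.0714 by the exact permutation test. Skeletal muscle genes summed to 90.9 to 3659 CPM in Axl KO and 933 to 4366 CPM in WT mice, all 12 lower with a median of -1.03 and 0 at an unadjusted p under 0.05; without Axl KO replicate 5 the median was -2.01 and without Axl KO replicate 2 it was -0.71. Of 3 tested Schwann cell genes 1 was higher and 2 lower, and of 5 erythroid genes 3 were higher and 2 lower, with 0 at an unadjusted p under 0.05 in either. None of these genes beside Axl passed the adjusted threshold, and their part in the levels of the macrophage markers was not tested.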

How the data were processed

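RNA of whole iBAT from 5 Axl KO and 5 WT mice on HFD was sequenced with 1 library per mouse. Per the deposited tables, values are raw counts: for every mouse the authors gave the whole number of reads assigned to each Ensembl gene, neither normalized nor pooled. The paper names Trim Galore and hisat2 with GRCm38, whereas the submitters' processing notes name Trimmomatic 0.36, STAR 2.6.1c and GRCm38.p5; the counting tool and its strand setting are not given in the sources used here. The paper's methods describe rRNA depletion and the labels polyadenylated RNA. The labels do not say whether the mice came from several litters or were handled on several days.

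Counts were tested in R 4.3.3 with edgeR 4.0.16 (TMM, quasi-likelihood test, Benjamini-Hochberg adjustment over the 13739 genes that averaged more than 1 CPM, no covariate), with 95% confidence intervals. The total counts (median 6645186 in Axl KO and 7748975 in WT mice) leave few reads for markers such as Cd68. For single values, exact two-sided permutation tests used all 252 splits, whose smallest p is 0.00794. The tables of any 2 mice differed by a chi-square per gene of at least 5.47, so no table repeated the library of another. Each mouse was taken as 1 replicate because the labels name it so. Exon lengths and coordinates come from GENCODE M21 (GRCm38), which held 41163 of the 41249 identifiers, and promoters from RefSeq. The procedure was tested on simulated data. Alternatives were DESeq2 1.42.0, RLE size factors, filterByExpr, no filter, protein-coding genes alone, the replicate number as a block, each mouse left out, and correlations without centring.

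The members, the 21 other gene lists and the tests were chosen with earlier results of these data known. The lists were compiled from general knowledge. Genes named are the 10 markers, Axl, genes of a list at an unadjusted p under 0.05 or without overlap, the ends of the macrophage lists (1 is not reported here), and the 5 genes most alike to the markers; the other names (Spi1, Csf1, Il34, Mertk, Timd4, Prox1, Flt4, Pdpn, Tnf, Il1b, Il6, the genes at 0 counts and the testable markers of other cells) were chosen after their values were seen.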

Additional observations from a re-analysis of the deposited data

Results flagged for a closer look

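In each genotype, the highest and the lowest mouse were compared with the nearest of the other 4 by Dixon's ratio of gap to range, for 50 groups of 5 mice. The ratio exceeded the critical value of 0.71 in 3 groups, beside 2.5 that chance gives at 5% per group, and in none of the groups of the 10 macrophage markers. Axl KO replicate 4 had 0.437 CPM of Axl, with the next lowest Axl KO mouse at 1.69 CPM (ratio 0.801), on 3 counts. WT replicate 5 had 30.2 CPM of Cldn5, a tight junction gene of blood endothelium, with the next highest WT mouse at 20.9 CPM (ratio 0.763). Axl KO replicate 5 had 7632 CPM of Ucp1, the uncoupling protein of brown fat, with the next highest Axl KO mouse at 5571 CPM (ratio 0.742).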

How the results depend on the processing

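The markers stayed without a call under DESeq2, RLE size factors, filterByExpr, no filter on low counts, protein-coding genes alone, a replicate block and each mouse left out in turn. The lowest adjusted p of any of them was 0.3129, for Csf1r without Axl KO replicate 3 (log2 fold change -0.29, SE 0.13), and this was the 1 case of an unadjusted p under 0.05 (0.0396). Over all genes DESeq2 called 9 and edgeR 1. With 1 mouse left out, the median of the 10 markers ran from -0.18 without Axl KO replicate 3 to 0.07 without Axl KO replicate 4. The sign of small values turned with single mice, their log2 fold changes ranging from -0.0329 to 0.187 for Mrc1, from -0.211 to 0.0199 for Cd163, from -0.20 to 0.21 for Lyve1, from -0.13 to 0.12 for C1qb and from -0.0644 to 0.127 for C1qc; Axl KO replicates 3, 4 and 5 gave these ends. The others kept their sign but moved as much, from -0.336 to -0.0807 for Adgre1, from 0.0348 to 0.432 for Cd68, from -0.295 to -0.0798 for Csf1r, from -0.232 to -0.016 for C1qa and from -0.322 to -0.0747 for Mpeg1, with Axl KO replicate 3, Axl KO replicate 4 or WT replicate 5 left out at the ends. The replicate block turned Lyve1 to -0.0228 and changed no call. Deviations of the same-numbered Axl KO and WT mice correlated at -0.19, 0.37, 0.05, 0.06 and -0.36. The best match had the same number for replicate 2 but not for replicates 1, 3, 4 and 5. Whether same-numbered mice shared a litter or a day cannot be told from these values. The cause of the shifts between fits was not tested. Counts of 19 to 59 for Cd68 and 20 to 92 for Lyve1 limit what these mice can show for both genes.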
